A study of Rattus norvegicus with 64 samples.

Results

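RNA-seq profiles of whole blood from 64 rats were used to follow 10 genes that mark blood platelets: Ppbp, Pf4, Itga2b, Itgb3, Gp9, Gp1ba, Gp1bb, Tubb1, P2ry12 and Treml1. They were picked by symbol from 26405 genes listed in any of the count files, and all 10 were listed in all 64 files and passed the filter on low counts. No threshold on a measured value defined them. The genes were nevertheless chosen with earlier results of these data known, and which values led to the choice was not recorded, so the p-values below are no independent support.

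The rats were male Sprague-Dawley animals aged 85 to 90 days, and each received 4 injections, 2 h apart, with cardiac blood drawn and frozen 3 h later. The control rats received saline in a 22.5 °C room (22.5 °C saline, 6 rats) or in a 16 °C environment (16 °C saline, 5 rats), and 16 further saline rats were held at 39 °C so that the environment itself made them hyperthermic (39 °C saline). Amphetamine (AMPH) was given in the 22.5 °C room (22.5 °C AMPH, 22 rats) or at 16 °C (16 °C AMPH, 15 rats). The labels call the former rats hyperthermic and the latter normothermic, so these 2 groups differ in both respects. Each library came from 1 rat. No strain, sex or genotype differed between groups, and by the study's methods AMPH rats that became too hot were cooled on crushed ice, so the AMPH rats at 22.5 °C were not left at their own peak temperature.

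Platelets are small cell fragments without a nucleus that bone marrow megakaryocytes shed into the blood, and the RNA they carry is inherited from those cells. They stop bleeding by sticking to exposed vessel wall through the glycoprotein Ib-IX complex, by answering signals such as ADP through P2ry12, and by binding fibrinogen through the integrin made of Itga2b and Itgb3. Their alpha granules store chemokines, of which Pf4 and Ppbp are the classic pair. In whole blood a lower level of such a transcript can mean fewer platelets, less RNA in each platelet or more RNA from other cells in the same library. These cannot be told apart in these data.

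The libraries held 19055615 to 40530319 counts, with a median of 27542432, and no member was at 0 in any rat. The lowest counts were 23 for Itgb3 and 59 for Tubb1, both in rat 12 of 16 °C AMPH, which was left out of the comparisons. In the rats compared the lowest was 74, for Itgb3, and Ppbp had 96 to 1933 counts. In the comparisons, 5 rats with more than 5000 counts of Mb, the myoglobin gene of heart muscle, were left out, which leaves 4, 5, 15, 22 and 13 rats in 22.5 °C saline, 16 °C saline, 39 °C saline, 22.5 °C AMPH and 16 °C AMPH. Levels are CPM, a gene's count relative to the TMM-scaled total of its library, and fold changes are on the log2 scale from 1 edgeR quasi-likelihood fit with group and sequencing project as terms. A gene is called where its Benjamini-Hochberg adjusted p over 14000 genes is under 0.05 and its log2 change is above 0.58 in size. The 22.5 °C saline rats shared sequencing projects only with 22.5 °C AMPH rats, so their comparisons with other saline rats rest on the project term. The labels number them 17 to 22. The paper describes a last control group of 6 rats, 2 of them with Mb above 5000 counts. By the paper, that group's first libraries were poorly amplified and its RNA was sequenced again. The labels do not state whether these are the same rats, or which run is given.

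Ppbp encodes the precursor of chemokines that draw neutrophils, and it had the widest separation between groups. It was at 2.36, 2.80, 3.01 and 4.44 CPM in the 4 rats given saline at 22.5 °C and at 5.81, 9.78, 11.3, 12.0 and 16.3 CPM in the 5 given saline at 16 °C. In the 39 °C saline rats the lowest, median and highest Ppbp levels were 12.5, 22.6 and 72.6 CPM. In the AMPH rats they were 4.59, 24.0 and 65.7 CPM at 22.5 °C and 6.92, 13.1 and 20.7 CPM at 16 °C. The 22.5 °C saline rats lay below every rat of the other 4 groups for Ppbp, and the highest group median was 8.24 times the lowest. The 2 rats of 22.5 °C saline left out for Mb were higher, at 7.56 and 7.25 CPM, and 1 AMPH rat at 22.5 °C, rat 17 with 4.59 CPM, lay below them.

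P2ry12, the ADP receptor that clopidogrel blocks, spanned less, and 39 °C saline had its highest median. Its 22.5 °C saline values were 6.41, 8.88, 8.88 and 10.3 CPM, and its 16 °C saline values were 9.06, 11.2, 16.3, 21.1 and 23.5 CPM. The lowest, median and highest P2ry12 levels were 15.4, 28.1 and 101 CPM in 39 °C saline, 7.25, 22.7 and 57.2 CPM in 22.5 °C AMPH and 12.9, 21.2 and 35.2 CPM in 16 °C AMPH. Every rat of 39 °C saline and of 16 °C AMPH lay above all 4 of the 22.5 °C saline rats, as did 21 of 22 rats of 22.5 °C AMPH. Of all genes tested, 1.32% had every rat of 16 °C AMPH above all 22.5 °C saline rats. The median of 39 °C saline was 3.17 times that of 22.5 °C saline.

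Pf4, the other granule chemokine, behaved differently from Ppbp although both lie in the same chemokine cluster. Its 22.5 °C saline values were 451, 829.01, 1070 and 1259 CPM, and all 5 rats given saline at 16 °C were above them, at 1544, 1825, 1998, 2084 and 2922 CPM. The lowest, median and highest Pf4 levels were 1280, 1953 and 6176 CPM in 39 °C saline, 415, 1563 and 4176 CPM in 22.5 °C AMPH and 650, 1808 and 2762 CPM in 16 °C AMPH. The highest Pf4 median belonged to 16 °C saline and not to a hyperthermic group, and the span of medians was 2.10 times.

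Itga2b, the fibrinogen receptor's alpha chain, had medians of 221, 280, 488, 328 and 325 CPM in 22.5 °C saline, 16 °C saline, 39 °C saline, 22.5 °C AMPH and 16 °C AMPH. In the same order its partner Itgb3 had medians of 23.0, 21.9, 99.99, 52.1 and 55.6 CPM, a span of 4.56 times. Both subunits had their highest median in heated saline rats, and each of the other 4 groups overlapped with 22.5 °C saline for both.

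Gp9, Gp1ba and Gp1bb encode parts of the receptor for von Willebrand factor. Gp9 medians were 23.0, 38.9, 52.4, 55.9 and 45.7 CPM in the order above, Gp1ba medians were 13.1, 14.7, 32.4, 25.1 and 22.9 CPM and Gp1bb medians were 78.9, 135, 150, 122 and 128 CPM. For 9 of the 10 members the lowest median was that of 22.5 °C saline, the exception being Itgb3. Reads of Gp1ba, Gp1bb and P2ry12 are less certain, since each lies over or beside another annotated gene and the counting is not stated to use strand.

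Tubb1, the beta tubulin that forms the ring of microtubules under the platelet membrane, was at 7.29, 15.1, 17.3 and 20.7 CPM in 22.5 °C saline and at 6.04, 18.2, 18.4, 19.1 and 36.3 CPM in 16 °C saline. Its lowest, median and highest levels were 12.7, 54.1 and 176 CPM in 39 °C saline, 5.79, 30.4 and 106 CPM in 22.5 °C AMPH and 9.36, 28.8 and 47.7 CPM in 16 °C AMPH. In all, 14 of 15 heated rats were above all 4 of the 22.5 °C saline rats. Treml1, an alpha granule receptor shown on the surface of activated platelets, had medians of 94.1, 166, 253, 208 and 174 CPM in the order above.

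**Figure D1:**
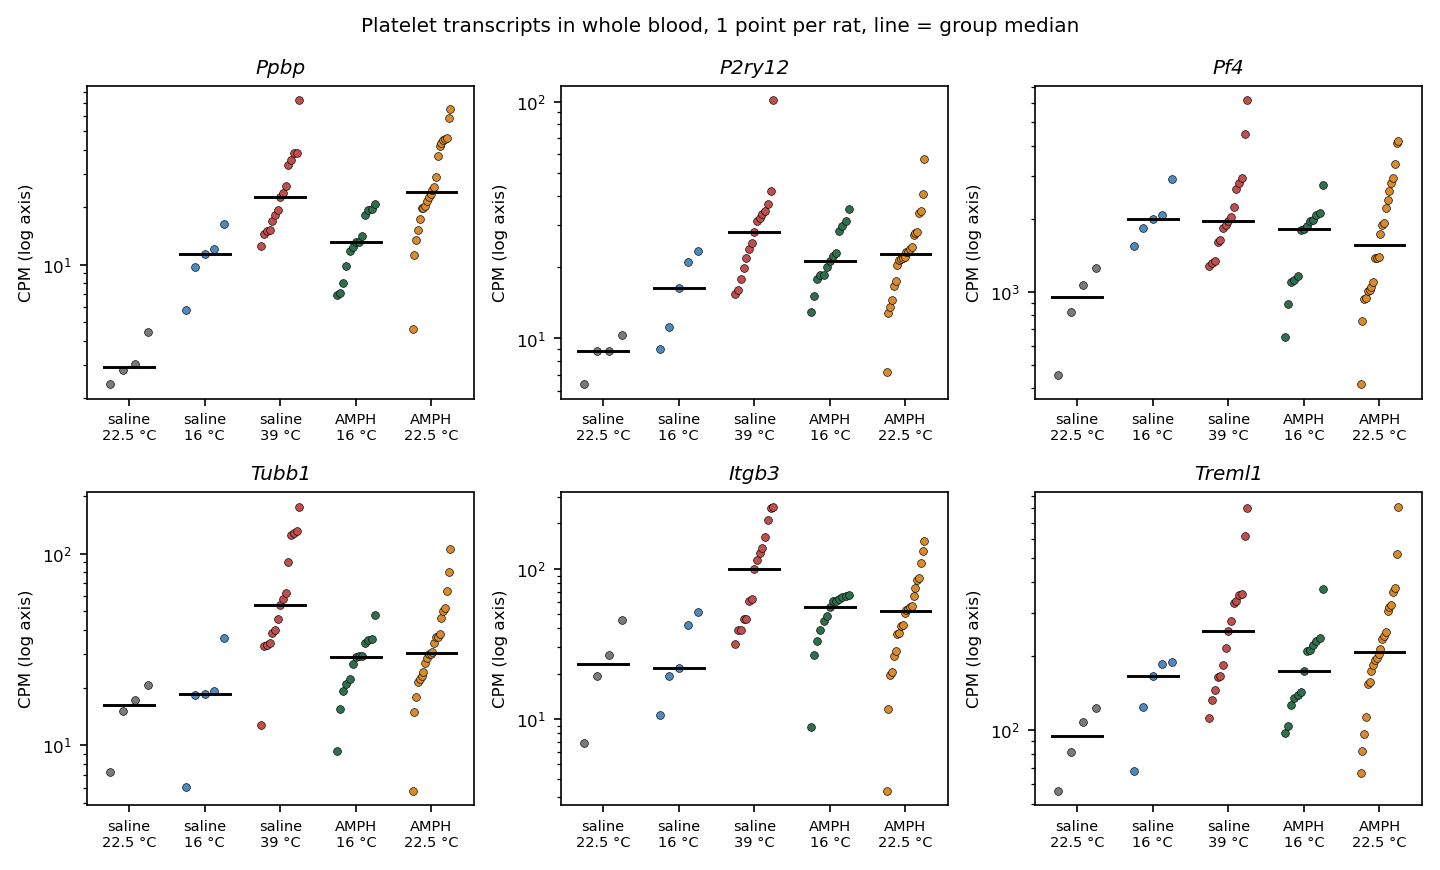
Levels of 6 platelet transcripts in CPM on a log axis, 1 point for each of 59 rats and a line at each group's median. For Ppbp the 22.5 °C saline rats, between 2.36 and 4.44 CPM, sit below every rat of the other groups, whereas for Tubb1, Itgb3 and Treml1 the groups overlap and 39 °C saline has the highest median.

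The spread between rats was wide. The SD of Ppbp on the log2 scale was 0.38, 0.54, 0.70, 0.89 and 0.55 in 22.5 °C saline, 16 °C saline, 39 °C saline, 22.5 °C AMPH and 16 °C AMPH, and that of Itgb3 was 1.15, 0.92, 1.04, 1.23 and 0.81. P2ry12 was the steadiest member in 22.5 °C saline, with an SD of 0.29. Among 22.5 °C AMPH rats Itgb3 ranged 46.1-fold, which rests on rat 21: it had 3.32 CPM of Itgb3 and 5.79 CPM of Tubb1, the lowest values of its group, beside 812 CPM of Treml1, 547 CPM of Gp1bb and 4176 CPM of Pf4, the highest. This rat was the only one of its sequencing project and carried no weight in the fold changes. One heated rat, rat 8, had the highest level of its group for Ppbp, Pf4, Gp9, Gp1bb, P2ry12 and Treml1.

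The effect of AMPH at 22.5 °C was asked first. Ppbp was higher by 2.88 ± 0.48 (SE, log2) in 22.5 °C AMPH than in 22.5 °C saline (adjusted p = 0.00117), with all 22 rats above all 4 controls, and P2ry12 was higher by 1.52 ± 0.41 (adjusted p = 0.0359). These were the 2 members called of 10, where 2.49% of all genes tested were called. Absence of overlap, as for Ppbp, was seen in 0.121% of genes tested, 17 in all. The other 8 members had log2 differences between 0.64 (Gp1bb) and 1.33 (Tubb1), all above 0 and none called. The median of the 10 was 1.10, beside a median of -0.03 over all genes.

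The call of Ppbp at 22.5 °C was kept when each of the 4 controls was left out in turn, with adjusted p between 0.00155 and 0.0339, whereas that of P2ry12 was lost without saline rat 17, 18 or 21 (adjusted p = 0.13, 0.103 and 0.24). With all 64 rats, the higher controls included, Ppbp differed by 2.80 (adjusted p = 3.74e-05) and P2ry12 by 1.41 (adjusted p = 0.015). In the 2 sequencing projects that held both groups the AMPH median was higher for all 10 members in both. One of these projects held 1 rat of each group. A fit of the 7 AMPH and 4 saline rats of both projects alone gave nearly the same log2 differences, 2.92 for Ppbp and 1.55 for P2ry12, but called no gene at all (adjusted p = 0.266 for both). Another alternative left out saline rat 19 and AMPH rat 17 together, for which no outlier criterion is given. Without them 4 members were called, with Gp9 (1.49) and Tubb1 (1.55) added to Ppbp (3.11) and P2ry12 (1.69), and the count over all genes went from 349 to 2934.

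At 16 °C AMPH and saline did not separate. None of the 10 members was called, and none had an unadjusted p under 0.05, against 1499 of 14000 genes that did. edgeR called 0% of all genes in this comparison and DESeq2 called 91 genes, none of them a member. The log2 difference was 0.04 ± 0.53 for Ppbp, 0.18 ± 0.47 for P2ry12 and -0.29 ± 0.55 for Pf4, and the 10 members ranged up to 0.41 (Gp1ba). Errors of this size leave room for changes of a log2 unit, and the 5 controls shared their sequencing project with only 1 AMPH rat of the same temperature.

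Whether the AMPH effect differed between the environments was tested as the difference of the 2 effects. For Ppbp the effect was larger at 22.5 °C by 2.84 ± 0.71 (log2), which was not called (adjusted p = 0.303), and for P2ry12 by 1.33 ± 0.62 (adjusted p = 0.651). edgeR called 0% of genes here too, with 2 members, Ppbp and P2ry12, among 1034 genes under an unadjusted p of 0.05. DESeq2 called 50 genes and, of the members, Ppbp (adjusted p = 0.0144), as did edgeR without the project term (0.00672) and without saline rat 19 and AMPH rat 17 (0.0353).

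Ppbp also set the AMPH groups apart from each other, and there the shared projects were many. It was higher by 1.32 ± 0.30 (log2) in 22.5 °C AMPH than in 16 °C AMPH (adjusted p = 0.00298), with 20 of 22 rats above the median of the cooled group, and it was the only member called where 7.05% of genes were called. In each of the 5 projects that held both groups its median was higher at 22.5 °C, and a fit of those rats alone gave 1.54 (adjusted p = 0.000489). It was called under each of the 18 alternatives run, with log2 differences from 1.14 to 1.54. Many of these only left out a saline rat, which is in neither group, and no AMPH rat was left out in turn. The other 9 members lay between -0.17 (Gp1ba) and 0.30 (Gp9) with errors of 0.26 to 0.37, and none had an unadjusted p under 0.05.

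In the rats heated without drug 3 members were called higher than in 22.5 °C saline. In 39 °C saline against 22.5 °C saline Ppbp was higher by 2.35 ± 0.55 (adjusted p = 0.0203), Tubb1 by 2.28 ± 0.59 (adjusted p = 0.0293) and P2ry12 by 1.797 ± 0.49 (adjusted p = 0.0368), where 2.86% of genes were called. The values of the other 7 lay between 1.15 (Gp1bb) and 2.33 (Gp1ba, adjusted p = 0.0524), and the median of the 10 was 1.68 beside -0.04 for all genes. Ppbp, Pf4, Gp9 and P2ry12 did not overlap between these groups, as was the case for 1.54% of genes tested.

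These heat comparisons hang on 4 control rats that shared no project with heated rats. Leaving out saline rat 17 or 21 ended the call of Ppbp (adjusted p = 0.0582 and 0.14), and leaving out 17, 18 or 21 ended that of Tubb1 (0.0582, 0.0717 and 0.187) and P2ry12 (0.0835, 0.07 and 0.199). Without rat 19 all 3 were still called and Gp1ba joined them (adjusted p = 0.0434), where 1365 of 14224 genes were called. Without saline rat 19 and AMPH rat 17, 8 members were called, beside 2785 of 14183 genes. Without the project term all 10 were, beside 3329 of 14000 genes.

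Heat and AMPH at 22.5 °C, compared directly, gave no called member by edgeR, where 1.59% of genes were called and 4 members had an unadjusted p under 0.05. Ppbp was the only member on the AMPH side, at -0.53 ± 0.31 (log2) in 39 °C saline against 22.5 °C AMPH (adjusted p = 0.351). The largest values on the side of heat were those of Gp1ba (1.11 ± 0.40), Itgb3 (0.98 ± 0.41), Tubb1 (0.95 ± 0.33) and Itga2b (0.86 ± 0.36), with adjusted p between 0.107 and 0.186. DESeq2 called Gp1ba and Tubb1 there, beside 419 of 14000 genes. Without the project term edgeR called Itgb3 and Tubb1, beside 768 of 14000 genes. Heat by itself and AMPH at 22.5 °C share their control rats in the comparisons above, so the likeness of those values carries no weight of its own.

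Saline at 16 °C against saline at 22.5 °C gave positive values for all 10 members, from 0.56 (Gp9) to 1.51 ± 0.68 (Ppbp, adjusted p = 0.526), and edgeR and DESeq2 called none of them, with 1 member, Ppbp, under an unadjusted p of 0.05. Of all genes 0.00714% were called by edgeR. Ppbp and Pf4 did not overlap between these groups of 5 and 4 rats, as was seen for 3.64% of genes tested. These groups shared no sequencing project. For Ppbp the order of group medians was thus 22.5 °C AMPH, 39 °C saline, 16 °C AMPH, 16 °C saline and 22.5 °C saline, and none of the 3 neighbouring pairs that were fitted differed by the call rule. The pair of 39 °C saline and 16 °C AMPH was not fitted.

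**Figure D2:**
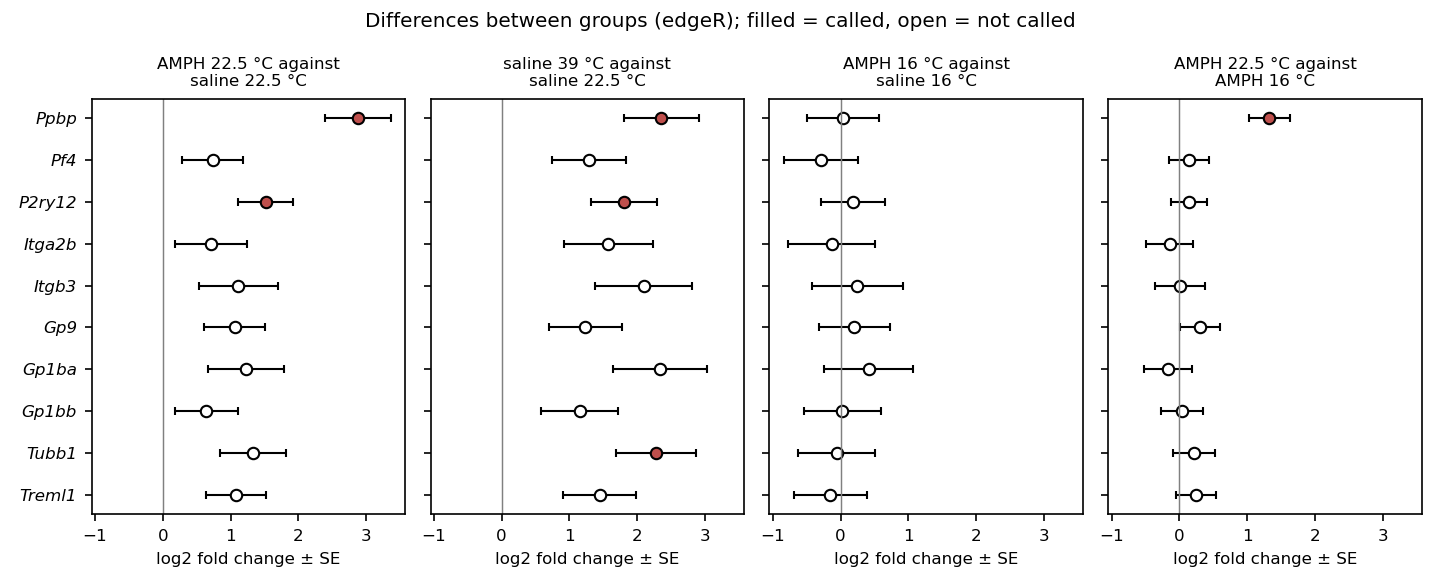
Log2 fold changes with their standard errors for the 10 members in 4 comparisons, from the edgeR fit over 59 rats, with called genes filled. Ppbp is called in 3 of the 4 panels, and in the comparison of the 2 AMPH groups it stands at 1.32 while the other 9 lie between -0.17 and 0.30.

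Pf4 and Ppbp are stored in the same granules, and the ratio of their counts was formed within each rat, where a change that scales both alike cancels. In 22.5 °C saline there were 2.21, 2.23, 5.36 and 6.68 Ppbp counts per 1000 Pf4 counts, and in 16 °C saline 3.76, 4.89, 5.44, 5.59 and 6.59. The lowest, median and highest ratios were 4.34, 11.9 and 23.9 in 39 °C saline, 4.15, 16.4 and 32.5 in 22.5 °C AMPH and 3.57, 8.82 and 15.9 in 16 °C AMPH. No rat of 16 °C saline exceeded the highest ratio of 22.5 °C saline, whereas 12 of 15 heated rats, 20 of 22 rats of 22.5 °C AMPH and 8 of 13 rats of 16 °C AMPH did. In the 5 projects that held both AMPH groups the median ratio was higher at 22.5 °C in all 5. The ratio was formed after the levels had been seen and is given without a test.

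**Figure D3:**
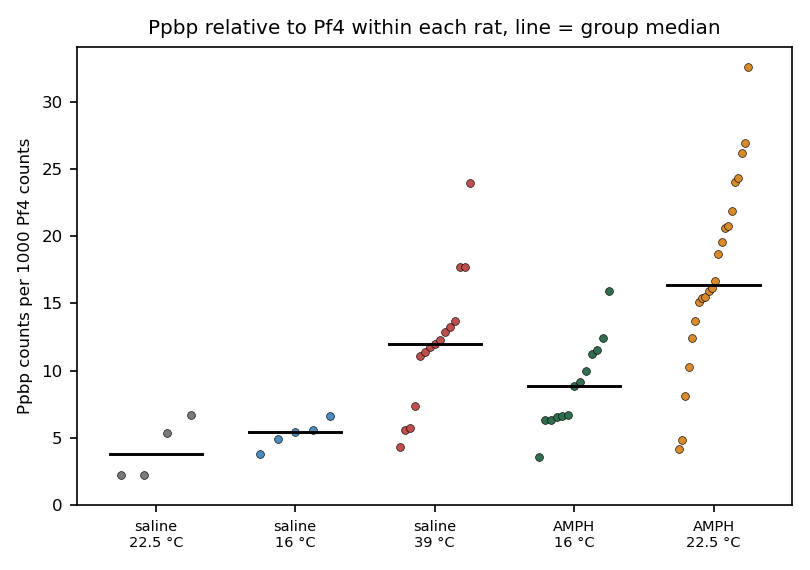
Ppbp counts per 1000 Pf4 counts, 1 point for each of 59 rats and a line at the group median, on a linear axis from 0. Both saline groups without heat stay at or under 6.68, and the median rises to 11.9 in 39 °C saline and 16.4 in 22.5 °C AMPH.

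The levels rose and fell together from rat to rat. Over the 45 pairs of members the median Pearson r of log2 CPM was 0.62 among 22 rats of 22.5 °C AMPH, 0.68 among 15 of 39 °C saline and 0.58 among 13 of 16 °C AMPH. The share of pairs that passed a permutation test, adjusted over the 45 pairs of a group (Pearson, 100000 resamples, two-sided, adjusted p under 0.05), was 34, 38 and 20 of 45. The other saline groups had too few rats for such a test. The 10 were chosen as genes of 1 cell type, so these counts describe the set and do not test it.

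Itgb3 and Tubb1 were among the closest pairs in all 3 groups, with Pearson r of 0.925, 0.901 and 0.873 and Spearman rho of 0.907, 0.904 and 0.901 in 22.5 °C AMPH, 39 °C saline and 16 °C AMPH (permutation p = 1e-05, 2e-05 and 0.00032 for r, of which 1e-05 is the smallest the resamples can give, and 1e-05, 3e-05 and 4e-05 for rho). Adjusted over the 45 pairs the values for r were 5e-05, 0.00015 and 0.00206. Without the 2 rats farthest from the median of Itgb3 the r values were 0.922, 0.886 and 0.574.

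Pf4 and Gp9, the pair with the highest r in 22.5 °C AMPH, had r of 0.936, 0.808 and 0.789 and rho of 0.95, 0.646 and 0.83 in the same groups (permutation p = 1e-05, 0.00074 and 0.00142 for r, 1e-05, 0.011 and 0.00081 for rho, and 5e-05, 0.00222 and 0.00532 for r after adjustment). Leaving out the 2 rats farthest from the median of Pf4 took r to 0.929, 0.451 and 0.61, so in 39 °C saline the relation rests in part on those rats.

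The 2 chains of the fibrinogen receptor had r of 0.953 in 39 °C saline (rho 0.943, permutation p = 1e-05 for both, 0.00015 for r after adjustment) and 0.961 without the 2 farthest rats. In 22.5 °C AMPH Itga2b and Itgb3 reached only 0.488 (rho 0.729, permutation p = 0.0205 and 0.00022, adjusted p = 0.028 for r), and 0.312 without the 2 farthest. Rat 21 lowered this value, and without that rat alone r was 0.787 among 21 rats. In 16 °C AMPH it was 0.668 (rho 0.786, permutation p = 0.028 and 0.00231), which did not pass after adjustment (0.0573).

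Ppbp and Pf4 share their granules but were less closely tied. The r of Ppbp with Pf4 was 0.634 in 22.5 °C AMPH (rho 0.676, permutation p = 0.00145 and 0.00068, adjusted p = 0.00297 for r), 0.493 in 39 °C saline (rho 0.336, permutation p = 0.063 and 0.222, adjusted p = 0.0717) and 0.52 in 16 °C AMPH (rho 0.423, permutation p = 0.0694 and 0.152, adjusted p = 0.0975). Without the 2 rats farthest from the median of Ppbp these were 0.608, 0.192 and 0.418. With P2ry12 its r was 0.868 in 39 °C saline (rho 0.811, permutation p = 5e-05 and 0.00041, adjusted p = 0.000321 for r), and 0.709 without the 2 farthest rats. In 22.5 °C AMPH it was 0.519 (rho 0.483, permutation p = 0.0149 and 0.0243, adjusted p = 0.021 for r), or 0.377 without the 2 farthest, and in 16 °C AMPH it was 0.49 (rho 0.478, permutation p = 0.0906 and 0.104, adjusted p = 0.12 for r), or 0.462 without them.

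To take out differences between groups and projects, the log2 levels were centred within each group of each project, which was possible for 45 rats. The 45 pairs then had r between 0.211 (Pf4 with Itgb3) and 0.91 (Itga2b with Gp1ba), with a median of 0.62. Itga2b, Itgb3, Gp1ba and Tubb1, grouped after their values were seen, were tied to each other at 0.736 to 0.91, and Pf4 with Gp9 stood at 0.859. The 9 pairs with Ppbp ranged from 0.241 to 0.657 with a median of 0.53. Treml1 followed the mean of the members most closely (r = 0.91) and Ppbp least (r = 0.644), where that mean includes the gene itself. All values share the library they come from and are given as a description.

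**Figure D4:**
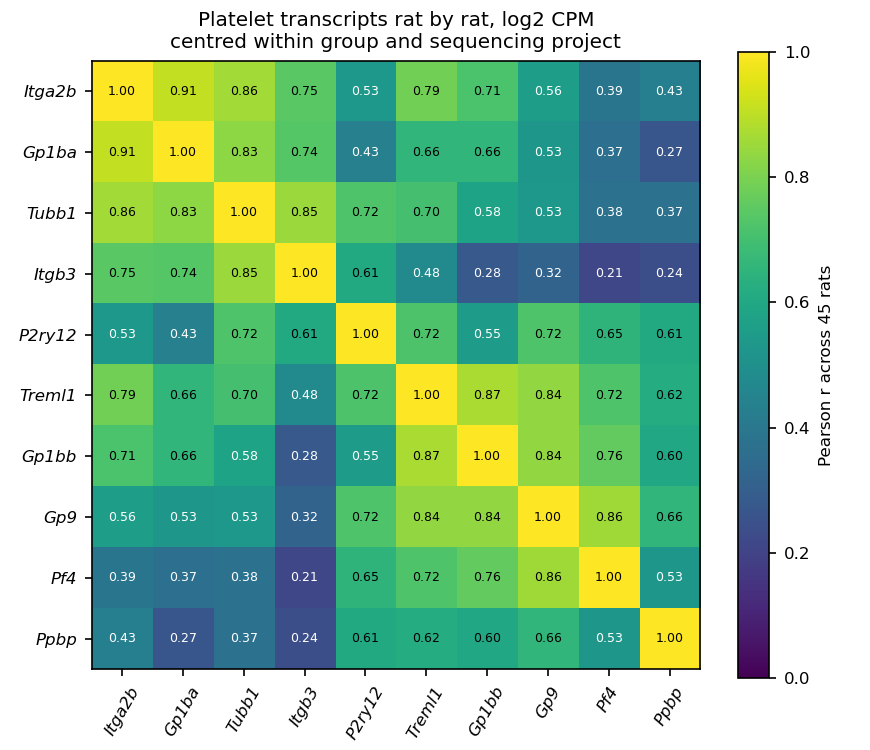
Pearson r between the log2 CPM of the 10 members across 45 rats, each level centred within its group and sequencing project, with the value printed in each cell and colour from 0 to 1. Itga2b, Gp1ba, Tubb1 and Itgb3 fill the upper left corner with values of 0.736 and above, Pf4, Gp9, Gp1bb and Treml1 form the second bright area, and Ppbp in the last row has none above 0.657.

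The sequence before the start of the gene is shown for Itga2b and Gp1ba, the pair with the highest centred r, for Gp9, the partner of Gp1ba in its receptor, and for Ppbp, which had the lowest r with the members' mean. Each is the 120 bases just upstream of the annotated start, 5′ to 3′ on the gene's strand, from RefSeq on GRCr8. Capitals mark matches, on either strand, to AGATAA or TGATAA, letters bound by GATA factors, or to ACCGGAAG, CAGGAAG or GAGGAAG, letters bound by Ets factors, both families being regulators of megakaryocyte genes.
Itga2b (chr10:87925834-87925953, minus strand): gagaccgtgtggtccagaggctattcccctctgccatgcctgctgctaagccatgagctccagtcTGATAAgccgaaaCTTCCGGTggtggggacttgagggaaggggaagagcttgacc
Gp1ba (chr10:55851439-55851558, plus strand): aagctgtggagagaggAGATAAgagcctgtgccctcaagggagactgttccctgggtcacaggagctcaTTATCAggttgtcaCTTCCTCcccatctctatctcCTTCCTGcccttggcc
Gp9 (chr4:121792722-121792841, plus strand): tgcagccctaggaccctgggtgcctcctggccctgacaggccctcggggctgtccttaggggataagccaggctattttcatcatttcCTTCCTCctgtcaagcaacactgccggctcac
Ppbp (chr14:17587300-17587419, minus strand): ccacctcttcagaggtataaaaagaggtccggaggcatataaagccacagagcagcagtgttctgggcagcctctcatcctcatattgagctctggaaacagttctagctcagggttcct

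In the whole window of 250 bases before to 50 after the start, Itga2b held TGATAA beginning 55 bases upstream and ACCGGAAG on the other strand at 42 and 176 bases. Gp1ba held AGATAA at 104 bases, TGATAA on the other strand at 51 bases, GAGGAAG at 37 and CAGGAAG at 16, the latter 2 on the other strand too. Gp9 held GAGGAAG on the other strand at 32 bases and CAGGAAG at 248 bases, and Tubb1 held GAGGAAG in both of its windows, at 155 and 157 bases. The windows of Ppbp, Gp1bb and Treml1 held none of the 5 letter strings. Pf4, Itgb3 and P2ry12 were not analysed here for sequence. AGATAA was held by 11.6% of all 33469 RefSeq windows, TGATAA by 9.03%, ACCGGAAG by 2.49%, CAGGAAG by 12.5% and GAGGAAG by 12.4%, so a match is common for 4 of the 5 and is a description only. The coordinates belong to another build than the rn5 genome to which the reads were aligned.

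The genes most like the members from rat to rat were taken from all other genes tested, by r with the members' mean over the 45 centred rats. The 10 nearest were P2rx1 (r = 0.936), Syt5 (0.934), Smpdl3b (0.929), Pla1a (0.926), Me1 (0.924), Slc6a4 (0.915), Gmpr (0.913), Ptgs1 (0.912), Pdlim1 (0.906) and Nrgn (0.905). Among them P2rx1 is the ATP-gated channel of platelets, Slc6a4 the transporter by which they take up serotonin, and Ptgs1 the cyclooxygenase that aspirin blocks. In all, 243 genes had r above 0.7.

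Other genes of platelet biology, in 5 lists that hold none of the 10 members, gave a wider view. Of 72 identifiers tested from these lists, 6 were called higher and 0 lower in 22.5 °C AMPH against 22.5 °C saline, where 2.16% of all genes were called higher and 0.336% lower, with a median log2 difference of 0.83. In 39 °C saline against 22.5 °C saline 8 were higher and 0 lower, with a median of 1.08 and a background of 1.93% higher and 0.929% lower. In 22.5 °C AMPH against 16 °C AMPH 2 were higher and 1 lower, beside 3.96% and 3.09% of all genes, with a median of 0.04, and in 16 °C AMPH against 16 °C saline 0 were called. The calls of single list genes given below were not followed under the alternatives. Without saline rat 21, only 8 genes of any kind were called with AMPH at 22.5 °C and 5 with heat. For AMPH at 22.5 °C the fit in shared projects called 0 genes, and the heat comparison has no shared project.

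Of the agonist receptors, P2ry1, F2rl3 and Ptgir were called. P2ry1, the ADP receptor that acts beside P2ry12, had medians of 1.93, 3.41, 11.8, 11.9 and 4.37 CPM in 22.5 °C saline, 16 °C saline, 39 °C saline, 22.5 °C AMPH and 16 °C AMPH. It was higher in 22.5 °C AMPH than in 22.5 °C saline by 2.11 ± 0.44 (adjusted p = 0.0105), higher in 39 °C saline than in 22.5 °C saline by 2.28 ± 0.51 (adjusted p = 0.018) and, like Ppbp, higher in 22.5 °C AMPH than in 16 °C AMPH by 1.19 ± 0.29 (adjusted p = 0.00555). F2rl3, a thrombin receptor, was higher than in 22.5 °C saline by 1.58 in 22.5 °C AMPH (adjusted p = 0.0409) and by 1.98 in 39 °C saline (adjusted p = 0.0326). Ptgir, the receptor for the platelet inhibitor prostacyclin, was higher in 39 °C saline than in 22.5 °C saline by 1.44 (adjusted p = 0.0387). In this list 2 of 9 were called with AMPH at 22.5 °C and 3 of 9 with heat. F2rl2 (median 60.6 CPM in 22.5 °C saline and 177 CPM in 22.5 °C AMPH) and P2rx1 (52.5 and 84.2 CPM), the most abundant of the list beside P2ry1, were not called (adjusted p = 0.072 and 0.22).

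Of 17 surface and adhesion genes none was called with AMPH at 22.5 °C or with heat, at medians of 1.02 and 1.31 on the log2 scale. Gp5, another part of the Gp1ba receptor complex and named here after its values were seen, had medians of 27.2, 56.1 and 83.5 CPM in 22.5 °C saline, 22.5 °C AMPH and 39 °C saline, with adjusted p of 0.183 and 0.0652 against 22.5 °C saline. Among the abundant genes of this list Clec1b differed by 1.02 with AMPH (adjusted p = 0.12) and Cd9 by 0.83 (adjusted p = 0.161). Cd36, a scavenger receptor that monocytes carry too, was the one gene called lower, by -1.06 ± 0.20 in 22.5 °C AMPH against 16 °C AMPH (adjusted p = 0.000372).

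Among 15 granule and coagulation genes Srgn, the core protein of granule proteoglycans, rose with AMPH at 22.5 °C by 1.19 (adjusted p = 0.0438), and Thbs1, a matrix protein of alpha granules, rose with heat by 2.95 ± 0.78 (adjusted p = 0.032). F13a1 (1.04) and Clu (0.82) were not called with AMPH (adjusted p = 0.152 and 0.318). In the list of 20 identifiers for signalling, cytoskeleton and eicosanoids Plek, a substrate of protein kinase C, rose with AMPH at 22.5 °C by 1.42 (adjusted p = 0.0149) and with heat by 1.44 (adjusted p = 0.032), and Lcp2, an adaptor of the collagen receptor's signal, rose with AMPH by 0.66 (adjusted p = 0.0367). The abundant Myl9 (0.82) and Rap1b (0.71) were not called with AMPH (adjusted p = 0.19 and 0.115). Srgn, Plek and Lcp2 are expressed in leukocytes as well.

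The megakaryocyte regulators mostly stayed uncalled with AMPH at 22.5 °C, at a list median of 0.11. In 22.5 °C AMPH Meis1 was higher than in 22.5 °C saline by 1.89 ± 0.40 (adjusted p = 0.0105) and than in 16 °C AMPH by 1.19 (adjusted p = 0.0015). With heat Meis1 (1.92, adjusted p = 0.0233), Tal1 (1.71, adjusted p = 0.0374) and Runx1 (0.80, adjusted p = 0.047) were called. Nfe2 (0.66, adjusted p = 0.263) and Gata1 (0.11, adjusted p = 0.878) were not called with AMPH. Red cell precursors use Tal1, Nfe2 and Gata1 too.

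Transcripts of other blood cells moved as well, and their part in the values above was not tested. Their summed levels are given as the lowest, median and highest rat. The 8 neutrophil markers, of which 7 passed the filter on low counts, summed to 1192, 4461 and 15930 CPM in 22.5 °C saline, to 1808, 12130 and 34190 CPM in 22.5 °C AMPH and to 2055, 6833 and 11740 CPM in 39 °C saline, and 1 of the 7 tested, Csf3r, was called higher with AMPH at 22.5 °C. The 6 monocyte markers summed to 154, 231 and 417 CPM in 22.5 °C saline, 183, 504 and 781 CPM in 22.5 °C AMPH and 187, 585 and 1039 CPM in 39 °C saline, and 1 of 6, Itgax, was called higher with heat (1.33 ± 0.32, adjusted p = 0.0227). The 5 T cell markers went the other way, from 180, 210 and 286 CPM in 22.5 °C saline to 37.8, 106 and 304 CPM in 22.5 °C AMPH and 41.0, 57.7 and 174 CPM in 39 °C saline, with 0 and 1 of 5 called lower. The 5 B cell markers had summed medians of 337, 174 and 194 CPM in these groups, and 0 were called. In 16 °C saline and 16 °C AMPH the summed medians were 20860 and 14710 CPM for neutrophils and 402.6 and 525.2 CPM for monocytes. They were 152.8 and 125.7 CPM for T cells and 304.7 and 131.5 CPM for B cells. The 4 endothelial markers summed to 5.69, 7.01 and 7.97 CPM in 22.5 °C saline, 6.98, 12.8 and 30.3 CPM in 22.5 °C AMPH, 7.68, 14.4 and 25.7 CPM in 39 °C saline and 5.47, 7.48 and 8.70 CPM in 16 °C AMPH. Cdh5 and Egfl7 were called higher in 22.5 °C AMPH against 22.5 °C saline, Cdh5, Egfl7 and Kdr in 22.5 °C AMPH against 16 °C AMPH, and 0 of 4 with heat. Ppbp, P2ry1 and Meis1 were called higher in both of these AMPH comparisons and also with heat. Which cells carried these transcripts was not tested. Of the 8 reticulocyte identifiers Hba-a2 (-1.45 ± 0.43, adjusted p = 0.0253) and Slc4a1 (-0.92 ± 0.27, adjusted p = 0.0259) were called lower in 22.5 °C AMPH against 16 °C AMPH, and 0 with AMPH at 22.5 °C or with heat against 22.5 °C saline. Hemoglobin took 2.78% to 33.3% of counts over the 64 rats, and leaving its genes out kept the calls of Ppbp, P2ry12 and Tubb1 given above.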

How the data were processed

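Whole blood of 64 rats was sequenced after globin depletion, as strand-specific poly(A) libraries. The authors called bases with CASAVA 1.8.2 and, per the submitters' processing notes, used Bowtie 0.12.9, RSEM 1.2.0 and the rn5 build, and deposited 1 file of expected counts per gene for each rat, which held whole numbers. The deposited files list different sets of genes, so only the 17366 genes listed in all files were used. The filter on low counts asked for 10 counts or more in 4 or more rats and left 14000 genes. One edgeR 4.0.16 quasi-likelihood fit (R 4.3.3, TMM) took group and sequencing project, the code in each file's name, for the 59 rats with at most 5000 Mb counts. The Mb limit removed 2, 0, 1, 0 and 2 rats of 22.5 °C saline, 16 °C saline, 39 °C saline, 22.5 °C AMPH and 16 °C AMPH. Rats alone in a project carried no weight. The study's methods name DESeq2 and no covariate, and DESeq2 1.42.0 and a fit without projects were run as alternatives. Log2 CPM used a prior count of 1. The replicate libraries of a group differed by more than counting noise in all pairs compared. Nothing in the labels ties rats to litters.

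Genes named beside the members were those of 5 platelet lists that were called in any comparison, the 3 most abundant of each list, and the 10 genes nearest to the members' mean. Gp5, which meets none of these rules, was added after its values were seen. Of the markers of other cell types, some that were called are named. The members and lists were chosen with earlier results of these data known. No protein sequence was used here.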

Additional observations from a re-analysis of the deposited data

How the results depend on the processing

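Of 1210 values of single members recomputed under alternatives, 1131 kept direction and call, 17 lost the call, 35 gained it and 27 changed sign, the last all uncalled and in 2 comparisons. Many of the alternatives left out a single saline rat, which could move little in comparisons without that rat's group. AMPH and heated rats were not left out in turn.

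For AMPH against saline at 22.5 °C, where 2 members were called, 4 were called without the project term and 4 without saline rat 19 and AMPH rat 17, 1 to 2 when 1 saline rat was left out, and 0 in shared projects only, in the W series only (rats whose titles end in W, which are all the 22.5 °C saline rats and part of the 22.5 °C AMPH rats) and with the replicate number as a block. The latter 3 fits called 0 genes of any kind. Over all genes the count, 349, was 1056 with DESeq2, 1090 with all 64 rats, 1676 without the project term, 2934 without rats 19 and 17, and 8 to 1312 when 1 saline rat was left out. For 39 °C against 22.5 °C saline, 3 members called became 6 with DESeq2, 6 with all 64 rats, 10 without the project term, 8 without rats 19 and 17, and 0 to 4 when 1 saline rat was left out. Over all genes its 400 calls became 1242, 1314, 3329, 2785 and 5 to 1365. For 39 °C saline against 22.5 °C AMPH, 2 members were called with DESeq2 and 2 without the project term. Over all genes its 223 calls became 419 with DESeq2, 768 without the project term and 16 in shared projects only. For the difference of the AMPH effects 1 member was called with DESeq2, 1 without the project term and 1 without rats 19 and 17, with 50, 20 and 80 calls over all genes where the reported fit had 0. Saline at 16 °C against 22.5 °C, with 1 gene called, had 67 with DESeq2 and 195 without rats 19 and 17. AMPH against saline at 16 °C had 91 with DESeq2, and the comparison of the AMPH groups called 987 against 1448 without the project term. The cause was not tested.

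Replicate numbers did not pair the rats. Same-numbered rats had a mean correlation of deviations of 0.181 over 4 pairs at 22.5 °C, of which 2 were above 0.1, and of -0.037, -0.012 and 0.071 in the 3 other comparisons with shared numbers. In none of the 4 did every rat correlate best with its own number. With the replicate block, Itgb3 and Gp1ba, 2 members, were called between AMPH and saline at 16 °C, the count over all genes there going from 0 to 116. In 22.5 °C AMPH against 16 °C AMPH it was 1423 and 1 member, and in 39 °C saline against 22.5 °C AMPH 216 and 0 members. No paired analysis was possible because the saline groups at 39 °C and 16 °C share fewer than 2 numbers with 22.5 °C saline. Nor could a fit in shared projects be made for these comparisons.

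For AMPH against saline at 16 °C the sign changed for Ppbp in shared projects (-0.63) and, when 1 saline rat was left out, in a range from -0.12 to 0.22, for Itgb3 in shared projects (-0.12), for Gp1bb there (-0.86) and over a range of -0.15 to 0.15 when 1 rat was left out, for Itga2b without the project term (0.47), with the replicate block (0.69) and over a range of -0.34 to 0.043, for Tubb1 likewise (0.48, 1.17 and -0.29 to 0.28), and for Treml1 without the project term (0.34) and with the block (0.50). For 22.5 °C AMPH against 16 °C AMPH it changed for Pf4 with all 64 rats (-0.0040) and the block (-0.037), for Itga2b without the project term (0.056), in shared projects (0.12) and with the block (0.087), for Itgb3 with median-of-ratios size factors (-0.010), without hemoglobin genes (-0.0094), with DESeq2 (-0.011) and with all 64 rats (-0.14), for Gp1ba without the project term (0.10) and in shared projects (0.052), and for Gp1bb with all 64 rats (-0.0072). None of these values was called.

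Passing pairs of members in 16 °C AMPH fell from 20 to 13 with all 64 rats. On raw shares of the total count the passing pairs were 27, 31 and 19, and without AMPH rat 21, an alternative chosen after seeing the data, 41 pairs passed in 22.5 °C AMPH. The lowest count of a member in the rats compared was 74, for Itgb3.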
